A study of Mus musculus with 12 samples.

Results

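Proteasome subunit genes were examined in skeletal muscle of mice labelled TauTKO, which lack the taurine transporter Slc6a6, and of wild-type (WT) mice. The members were all genes whose symbol in the array design is Psma, Psmb, Psmc, Psmd or Psme followed by a number. They were 43 of 34821 gene names and 55 of 55681 probes, and each gene was represented by the probe with the brightest mean signal over the 12 arrays. The 4 groups held 3 arrays each: young WT and young TauTKO at 3 months, and old WT and old TauTKO at 18 months. All samples were tibial anterior muscle of male mice of the C57BL6 strain, WT and TauTKO mice came from heterozygous parents, and the knockout was constitutive. The labels number the arrays without naming animals, and p-values therefore measure the spread between arrays.

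The proteasome is the protease complex that degrades proteins tagged with ubiquitin. Its 20S core is a barrel of outer alpha rings and inner beta rings, and the beta subunits Psmb5, Psmb6 and Psmb7 carry the proteolytic sites. Interferon-gamma induces the alternative catalytic subunits Psmb8, Psmb9 and Psmb10, which replace Psmb5, Psmb6 and Psmb7 in the immunoproteasome. The 19S regulator recognises and unfolds substrates with a ring of ATPases (Psmc) and a set of non-ATPase subunits (Psmd), while Psme1 and Psme2 (PA28 alpha and beta), Psme3 (PA28 gamma) and Psme4 (PA200) are alternative caps of the core. In skeletal muscle the proteasome is best known for its part in atrophy, together with muscle ubiquitin ligases such as Fbxo32 (atrogin-1) and Trim63 (MuRF1).

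Signals are expressed as log2 intensity after the array's 75th percentile was subtracted, so that each value is relative to its own array and is not compared between probes. Between 65.4% and 74.3% of probes were well above background on an array, no spot was saturated, and correlations between arrays ranged from 0.96 to 0.99. All young arrays were on 1 slide and all old arrays on the other, so that a difference by age cannot be told apart from one by slide, while each slide held both genotypes. The Slc6a6 probe was not lower in the arrays labelled TauTKO: its log2 signal was 3.48, 3.12 and 2.92 in young TauTKO against 2.62, 2.16 and 2.38 in young WT, and 3.72, 3.47 and 3.18 in old TauTKO against 2.48, 2.84 and 2.48 in old WT. Whether that probe lies in the deleted part of the gene is not given in the sources used here, so all directions below rest on the labels, and TauTKO stands for the arrays so labelled. All 8 fast-fibre markers were well above background on every array, as were all 7 slow-fibre markers. The summed linear signal of the slow-fibre markers, relative to the 75th percentile of the array, ranged from 13.6 to 237 over the old TauTKO arrays and from 55.4 to 122 over the old WT arrays. In this bulk tissue, fewer cells of a type and less RNA per cell cannot be told apart.

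Of the 43 subunit genes, 41 were well above background on all 12 arrays and were tested. The 2 others were Psma8, an alpha subunit of the testis proteasome, which was above background on 1 array, and Psmb11, the catalytic subunit of the thymus proteasome, which was above background on 0 arrays. The 41 tested genes were 7 alpha and 7 constitutive beta subunits of the core, 3 immunoproteasome subunits, 6 ATPases, 14 genes of the non-ATPase class and 4 activators. The classes were set by gene name, so that not every member need be a subunit of the mature complex.

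Most subunits differed little between the genotypes, and the 2 that passed the test in the main fit were both activators. Both calls were lost in some of the other fits given below. In old TauTKO against old WT, Psme1 was 1.5-fold lower and Psme4 was 1.32-fold higher, and none of the 37 members outside the activator class was called. With limma's 4-group fit and an adjusted p under 0.05 over all 38973 probes, 1 member was called higher, where 3.58% of all probes were called higher, and 1 was called lower, where 2.52% of all probes were called lower. No member reached a fold change of 1.8 as well, whereas 2.08% of all probes met both the adjusted p and that fold change. The 2 calls are near the shares of all probes and are not read as a trait of the activator class. The median log2 fold change of the members was -0.05, against -0.08 over all probes, and the median of its absolute value was 0.11, against 0.21. Of the 41 members, 33 (80.5%) differed by less than 0.2 on the log2 scale, against 47.4% of all probes. The members were the brightest probes of their genes, and all probes were not matched to them in brightness. The smaller differences are therefore not read as a trait of the subunits.

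The intervals set a limit on what could have been missed. The 95% interval of the old genotype difference lay within 1.5-fold for 38 of 41 members (92.7%) and within 1.8-fold for all 41, whereas it lay within 1.5-fold for 46.9% and within 1.8-fold for 69.4% of all probes. The median standard error was 0.09 for the members and 0.16 for all probes. Because all probes were not matched to the members in brightness, the narrower intervals are not read as a trait of the subunits. The same holds for the other shares of members set against all probes here and below. At an unadjusted p under 0.05 there were 5 members (12.2%), namely Psme1, Psme4, Psmc5, Psmb1 and Psmd7, against 22.8% of all probes. The arrays of the 2 genotypes did not overlap, with TauTKO higher, for 4 members, and with TauTKO lower for 8 members, while 11.7% and 15.7% of all probes were apart in these directions.

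In young TauTKO against young WT, Psme1 alone was called, and it was again lower. This 1 member called lower stood against 0.377% of all probes, and 0 members were called higher against 0.459% of all probes. No member reached 1.8-fold as well, against 0.375% of all probes. At an unadjusted limma p under 0.05 there were 3 members (7.32%), Psme1, Psme4 and Psmb1, against 12.8% of all probes. The methods' t-test had 4 members at an unadjusted p under 0.05 and 0 after Benjamini-Hochberg adjustment. The share of all probes under that t-test is not given here, so the count of 4 has no background beside it. The median log2 fold change was -0.04, against -0.03 over all probes, and 39 of 41 members differed by less than 0.2, against 61.6% of all probes. Groups did not overlap for 1 member with TauTKO higher (9.82% of all probes) and for 5 with TauTKO lower (12.5% of all probes).

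The share of members with a higher or a lower mean depended on the scaling. In old TauTKO, 16 members had a higher and 25 a lower mean with the 75th percentile, 20 and 21 with quantile normalization, and 28 and 13 with the median of the array. In young TauTKO these counts were 15 and 26, 23 and 18, and 20 and 21. No shared direction of the complex as a whole is therefore given.

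**Figure D1:**
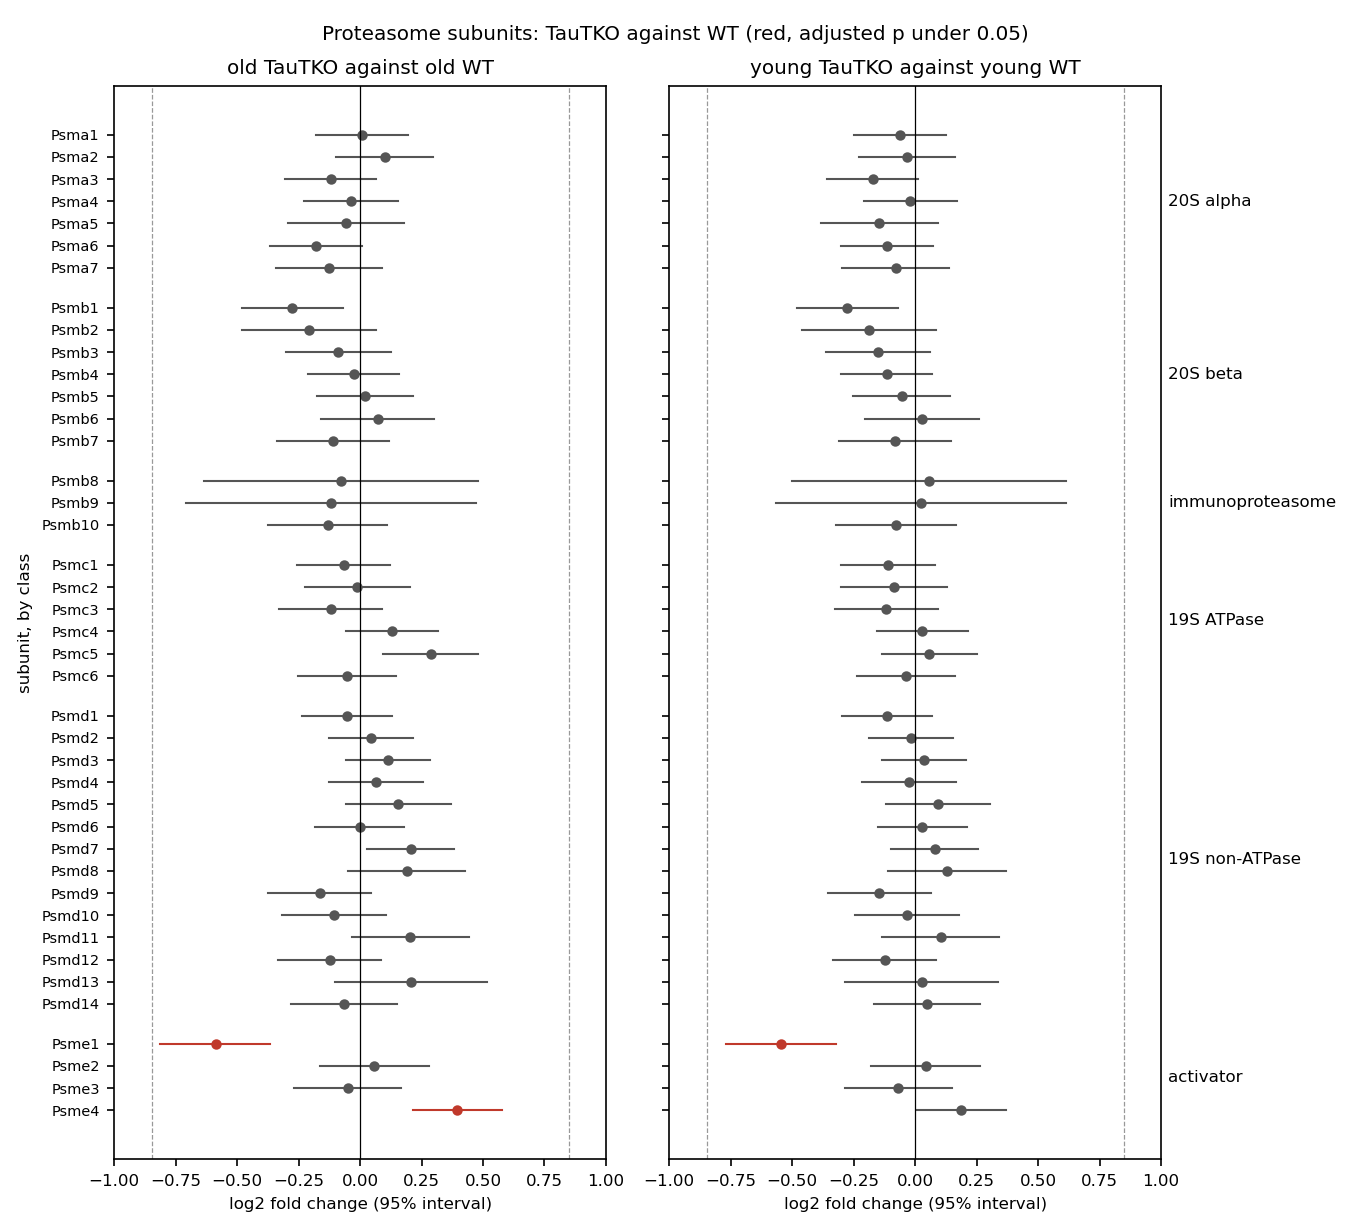
Log2 fold change (x axis) of the 41 tested subunits (y axis, by class) in old TauTKO against old WT (left) and young TauTKO against young WT (right), with 95% intervals from limma and dashed lines at 1.8-fold. Psme1 lies at -0.59 and -0.55, Psme4 at 0.40 and 0.19, and the intervals of all subunits stay inside the dashed lines.

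The 7 alpha subunits, which form the outer rings of the core and gate its channel, differed between the genotypes by -0.18 to 0.10 on the log2 scale in old mice and by -0.17 to -0.02 in young mice, and none was called. Psma6 had the lowest value in old mice. Its log2 signal was 4.35, 4.46 and 4.48 in old TauTKO, 4.61, 4.53 and 4.69 in old WT, 4.65, 4.52 and 4.51 in young TauTKO and 4.72, 4.59 and 4.71 in young WT. The old groups did not overlap, and the difference was -0.18 (95% interval -0.37 to 0.01, limma adjusted p = 0.237). Psma2 had the highest value in old mice, with 5.80, 5.88 and 5.81 in old TauTKO, 5.67, 5.66 and 5.87 in old WT, 5.95, 5.80 and 5.82 in young TauTKO and 5.97, 5.82 and 5.89 in young WT. These groups overlapped, and the difference was 0.10 (-0.10 to 0.30, adjusted p = 0.528).

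The 7 constitutive beta subunits differed by -0.28 to 0.07 in old mice and by -0.28 to 0.03 in young mice, and none was called. Psmb1, a non-catalytic beta subunit, had the lowest value at both ages. It had log2 signals of 4.07, 4.27 and 4.32 in old TauTKO against 4.51, 4.40 and 4.58 in old WT. It was 4.28, 4.18 and 4.12 in young TauTKO against 4.51, 4.41 and 4.49 in young WT. Every TauTKO array was below every WT array of its age, with differences of -0.28 in old mice (-0.48 to -0.07, limma adjusted p = 0.111) and -0.28 in young mice (-0.48 to -0.07, adjusted p = 0.222). Psmb2, the other non-catalytic beta subunit with a difference beyond 0.2, was at -0.21 in old mice (-0.48 to 0.07, adjusted p = 0.343).

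The catalytic subunits were given in every array with their interferon-inducible counterparts, in the order old TauTKO, old WT, young TauTKO and young WT. Psmb5, the chymotrypsin-like subunit, had log2 signals of 6.91, 6.99 and 7.06, then 6.95, 6.94 and 7.02, then 7.18, 7.04 and 6.95, and finally 7.20, 7.02 and 7.12. Its counterpart Psmb8 had 0.49, 0.83 and 0.96, then 0.77, 1.37 and 0.37, then 0.44, 0.96 and 0.66, and finally 0.72, 0.35 and 0.83. For both genes the genotypes overlapped at each age, but the Psmb8 arrays of a group were spread far more widely than those of Psmb5. The genotype difference of Psmb5 was 0.02 in old mice (-0.18 to 0.22) and -0.05 in young mice (-0.25 to 0.14). That of Psmb8 was -0.08 in old mice (-0.64 to 0.48) and 0.06 in young mice (-0.50 to 0.61).

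Psmb6, the caspase-like subunit and the highest of the beta class in old mice by its difference, had log2 signals of 6.57, 6.70 and 6.83 in old TauTKO, 6.65, 6.56 and 6.68 in old WT, 6.88, 6.63 and 6.61 in young TauTKO and 6.76, 6.59 and 6.69 in young WT. Its counterpart Psmb9 had 0.44, 0.85 and 0.91, then 0.93, 1.27 and 0.35, then 0.36, 0.88 and 0.45, and finally 0.72, 0.11 and 0.78 in the same order of groups. The genotypes overlapped for both. The difference was 0.07 for Psmb6 in old mice (-0.16 to 0.30) and 0.03 in young mice (-0.20 to 0.26). For Psmb9 it was -0.12 in old mice (-0.71 to 0.47) and 0.03 in young mice (-0.56 to 0.61).

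Psmb7, the trypsin-like subunit, had log2 signals of 4.78, 5.04 and 5.18 in old TauTKO, 5.07, 5.07 and 5.18 in old WT, 5.02, 5.04 and 5.04 in young TauTKO and 5.10, 5.07 and 5.18 in young WT. The young groups lay just apart and the old groups overlapped. The difference was -0.11 in old mice (-0.34 to 0.12) and -0.08 in young mice (-0.31 to 0.14). Its counterpart Psmb10 had 3.42, 3.55 and 3.52 in old TauTKO, 3.56, 3.76 and 3.57 in old WT, 3.80, 3.73 and 3.52 in young TauTKO and 3.88, 3.61 and 3.80 in young WT. The old groups were apart by a narrow margin, and the difference was -0.13 in old mice (-0.38 to 0.11) and -0.08 in young mice (-0.32 to 0.17). None of the 6 genes was called at either age. The intervals of Psmb8 and Psmb9 reach beyond 1.5-fold in at least 1 direction, so that a change of that size remains possible for them at 3 arrays per group.

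**Figure D2:**
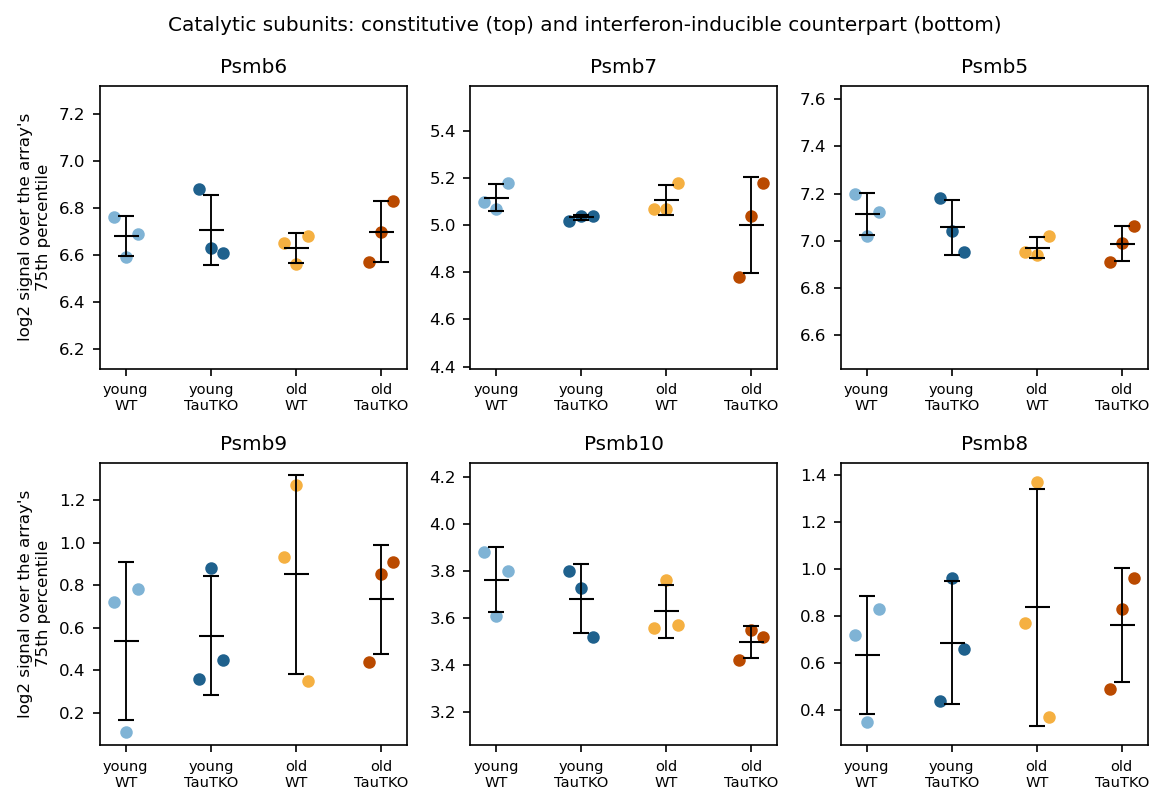
Log2 signal relative to the 75th percentile of the array (y axis, each panel with its own range) of Psmb6, Psmb7 and Psmb5 (top) and their counterparts Psmb9, Psmb10 and Psmb8 (bottom), 1 point per array, with the mean and SD of 3 arrays per group. Psmb8 and Psmb9 spread between 0.11 and 1.37 with the 4 groups overlapping.

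Psmb8 and Psmb9, which are neighbours in the major histocompatibility region, varied together from array to array. Old WT replicate 2 had the highest value of both genes (1.37 and 1.27), and old WT replicate 3 was among the lowest (0.37 and 0.35). Over the 12 arrays Pearson's r was 0.951 (permutation p = 2e-05, the smallest that 100000 resamples give, two-sided) and Spearman's rho was 0.926 (permutation p = 0.00016). The r was 0.923 without the 2 arrays farthest from the median of Psmb8, 0.963 within the young slide and 0.967 within the old slide. Psmb10, on another chromosome, had an r of 0.262 with Psmb8 (permutation p = 0.416) and of 0.232 with Psmb9 (permutation p = 0.464). Within the slides these values were higher, with 0.275 and 0.517 in the young arrays and 0.743 and 0.714 in the old arrays. For deviations from the group means r was 0.563 with Psmb8 and 0.641 with Psmb9, and 0.958 between Psmb8 and Psmb9. A part of gene position in these relations was not tested. With Benjamini-Hochberg adjustment over these 3 relations, the p of r was 6e-05 for Psmb8 with Psmb9 and 0.464 for the others, and that of rho was 0.00048 for Psmb8 with Psmb9 and 0.956 for the others. These relations were computed after the values had been seen.

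The 6 ATPases of the 19S regulator, which form the ring that unfolds substrates, differed by -0.12 to 0.29 in old mice and by -0.12 to 0.06 in young mice. Psmc5 had the highest value in old mice. Log2 signals were 5.60, 5.45 and 5.55 in old TauTKO, 5.21, 5.22 and 5.32 in old WT, 5.42, 5.19 and 5.25 in young TauTKO and 5.23, 5.17 and 5.29 in young WT. The old groups did not overlap, and the difference of 0.29 (0.09 to 0.48) had an adjusted p of 0.0818 in limma, which fell to 0.0301 with quantile normalization, 0.0335 with normexp background correction and 0.0299 with an intensity trend. Psmc3 was lowest, with 7.18, 7.15 and 7.25 in old TauTKO, 7.30, 7.27 and 7.38 in old WT, 7.31, 7.07 and 7.08 in young TauTKO and 7.35, 7.15 and 7.31 in young WT. Its difference in old mice was -0.12 (-0.33 to 0.09), with the groups just apart.

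The 14 genes of the non-ATPase class, which is set by name, include lid and base subunits, ubiquitin receptors and the deubiquitinase Psmd14. They differed by -0.17 to 0.21 in old mice and by -0.15 to 0.13 in young mice, and none was called. Psmd13, a lid subunit, was highest in old mice by a narrow margin. The arrays had log2 signals of 3.82, 3.85 and 3.88 in old TauTKO, 3.45, 3.50 and 3.98 in old WT, 3.82, 3.82 and 3.90 in young TauTKO and 3.91, 3.64 and 3.92 in young WT. The highest old WT array exceeded all TauTKO arrays, and the difference was 0.21 (-0.10 to 0.52). Psmd7, another lid subunit, had the same rounded difference of 0.21 with a narrower interval (0.03 to 0.38, limma adjusted p = 0.159). Psmd9, an assembly chaperone of the base that the naming rule places in this class, was lowest, with 0.60, 0.74 and 0.86 in old TauTKO, 0.96, 0.75 and 0.99 in old WT, 0.91, 0.85 and 0.87 in young TauTKO and 1.00, 1.00 and 1.07 in young WT. Its difference was -0.17 in old mice (-0.37 to 0.04) and -0.15 in young mice (-0.35 to 0.06), and the young groups did not overlap. The other Psmd9 probe was at -0.31 in old mice (-0.55 to -0.07, limma adjusted p = 0.124) and -0.35 in young mice (-0.59 to -0.11, adjusted p = 0.18).

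**Figure D3:**
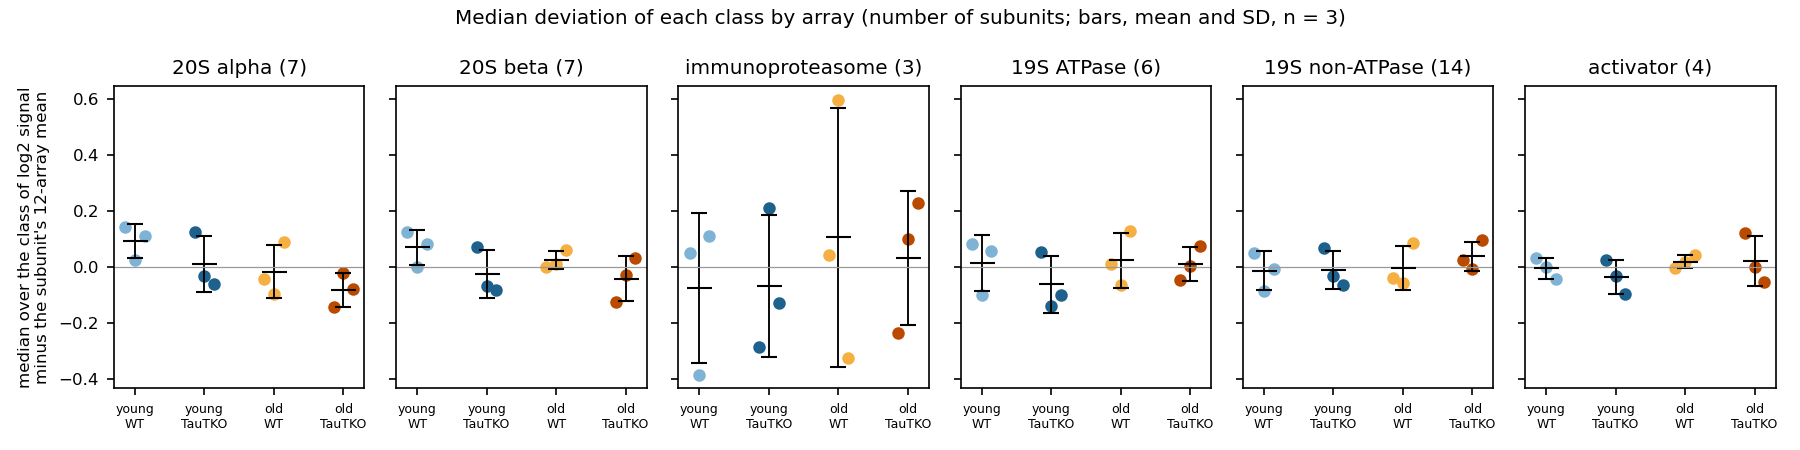
Median over each class (number of subunits in brackets) of the log2 signal minus the subunit's mean over 12 arrays (y axis), 1 point per array, with the mean and SD of 3 arrays per group. The immunoproteasome arrays spread the most within groups, and the genotypes overlap at each age in every class.

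The activators held both called genes, and these moved in opposite directions. Sequences are shown for the 2 called genes and for Psme2, the partner with which the Psme1 product forms the PA28 ring and whose gene lies beside Psme1. The first 30 of the 60 bases of each probe are given, with mm9 positions of the whole probe, chr14:56200194-56200253 on the plus strand for Psme1, chr14:56206296-56206355 on the minus strand for Psme2 and chr11:30756055-30756114 on the plus strand for Psme4.
Psme1 probe: agaaaccaagggaatgatctattgagcccc
Psme2 probe: cccgaagggtgaagaaaagccatcgatgta
Psme4 probe: aggaagatctttttctacagcagtcaaaga

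Psme1 encodes the alpha subunit of PA28, an interferon-inducible cap that opens the core for peptides. Its log2 signal was 2.97, 3.24 and 3.19 in old TauTKO against 3.74, 3.68 and 3.75 in old WT, and 3.19, 3.44 and 3.44 in young TauTKO against 3.88, 3.85 and 3.96 in young WT. All 6 TauTKO arrays lay below all 6 WT arrays. In old mice Psme1 fell by 0.59 on the log2 scale (95% interval -0.81 to -0.37, SE 0.10, limma adjusted p = 0.00898). In young mice it fell by 0.55 (-0.77 to -0.32, SE 0.10, adjusted p = 0.0413). The difference between these effects was -0.04 (-0.36 to 0.27, adjusted p = 0.98). The array has 1 probe for Psme1, so that no other probe bears on the result. The old call was lost with the replicate number as a block (adjusted p = 0.0536), with only the 2 groups compared (0.0831) and with the methods' t-test after adjustment (0.11). The young call was at the edge of the threshold and was lost when any 1 young array or any 1 of 5 old arrays was left out, with adjusted p between 0.0522 and 0.16, and was kept without old TauTKO replicate 1 (0.0277). It was also lost with quantile normalization (0.0608), with the median of the array (0.0846), with only the 2 groups compared (0.117) and with the methods' t-test after adjustment (0.153).

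Psme2 had log2 signals of 4.39, 4.35 and 4.27 in old TauTKO, 4.18, 4.38 and 4.28 in old WT, 4.49, 4.35 and 4.22 in young TauTKO and 4.41, 4.18 and 4.33 in young WT. The genotypes overlapped at both ages, and the difference was 0.06 in old mice (-0.16 to 0.28) and 0.04 in young mice (-0.18 to 0.26). A second probe to the same transcript was at -0.06 and -0.01. Another probe, to a different annotated transcript, was at -0.61 in old mice (limma adjusted p = 0.258) and 0.09 in young mice. Its log2 signal ranged from -2.88 to -1.39 in old TauTKO and from -1.54 to -1.37 in old WT, so that the old groups overlapped. Psme3, the nuclear PA28 gamma, was not called either and had differences of -0.05 (-0.27 to 0.17) and -0.07 (-0.28 to 0.15).

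Psme4 encodes PA200, a large single-chain nuclear cap. The main probe had a log2 signal of 2.92, 2.83 and 3.01 in old TauTKO against 2.50, 2.52 and 2.54 in old WT, and 2.72, 2.86 and 2.72 in young TauTKO against 2.59, 2.64 and 2.50 in young WT. Each TauTKO array exceeded each WT array of its age. In old mice Psme4 rose by 0.40 on the log2 scale (95% interval 0.21 to 0.58, SE 0.08, limma adjusted p = 0.0207) and was at 0.19 in young mice (0.01 to 0.37, adjusted p = 0.369), and the difference between these effects was 0.21 (-0.05 to 0.46, adjusted p = 0.927). A second Psme4 probe was at 0.39 in old mice (limma adjusted p = 0.0863) and 0.13 in young mice (adjusted p = 0.758). The old call was lost without old WT replicate 1, without old WT replicate 3 or without old TauTKO replicate 3 (adjusted p = 0.0806, 0.0663 and 0.057), and with the replicate block (0.0682). It was also lost without a filter on dim probes (0.0554), with only the 2 groups compared (0.129) and with the methods' t-test after adjustment (0.104).

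**Figure D4:**
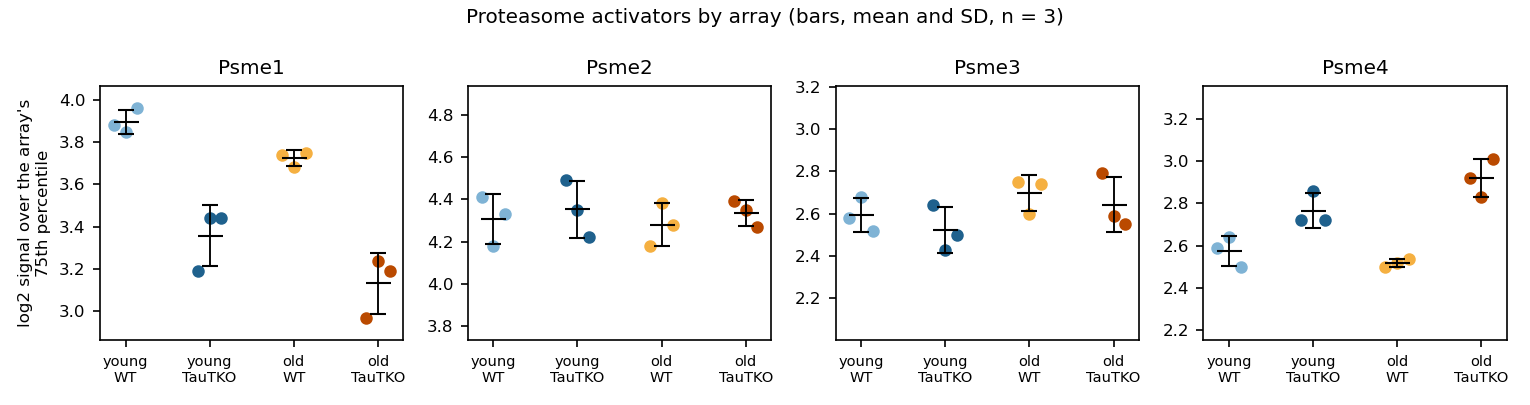
Log2 signal relative to the 75th percentile of the array (y axis, each panel with its own range) of the 4 activators, 1 point per array, with the mean and SD of 3 arrays per group. Psme1 is lower in all TauTKO arrays (2.97 to 3.44) than in all WT arrays (3.68 to 3.96), while Psme2 and Psme3 overlap between genotypes.

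The promoters of the same 3 genes, from 250 bases before to 50 bases after the start site, were taken from RefSeq on GRCm38.p6, a build other than that of the probe positions. Promoters were matched by symbol for 36 of the 43 members. The 4 motifs searched on both strands were the core of the antioxidant response element (TGANNNNGC), which the proteasome regulators Nfe2l1 and Nfe2l2 bind with Maf proteins, the CCAAT box, the gamma-interferon activated site (TTCNNNGAA) and the core of the interferon-stimulated response element (GAAANNGAA). Capitals mark the matches, of which each promoter shown holds 1. Psme1 lies at chr14:55578244-55578543 on the plus strand, Psme2 at chr14:55590972-55591271 on the minus strand and Psme4 at chr11:30771525-30771824 on the plus strand.
Psme1 promoter: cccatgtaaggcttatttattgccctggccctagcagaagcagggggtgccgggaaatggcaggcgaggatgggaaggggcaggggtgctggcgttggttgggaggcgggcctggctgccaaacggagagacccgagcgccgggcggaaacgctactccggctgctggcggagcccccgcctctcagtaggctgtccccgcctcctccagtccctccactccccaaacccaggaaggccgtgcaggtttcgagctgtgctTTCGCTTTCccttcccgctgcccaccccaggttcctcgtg
Psme2 promoter: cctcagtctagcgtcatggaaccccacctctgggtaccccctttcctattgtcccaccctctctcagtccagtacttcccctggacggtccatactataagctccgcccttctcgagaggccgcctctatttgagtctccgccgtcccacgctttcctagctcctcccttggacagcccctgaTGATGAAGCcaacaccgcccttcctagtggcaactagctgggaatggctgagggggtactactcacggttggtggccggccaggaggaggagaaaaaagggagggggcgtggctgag
Psme4 promoter: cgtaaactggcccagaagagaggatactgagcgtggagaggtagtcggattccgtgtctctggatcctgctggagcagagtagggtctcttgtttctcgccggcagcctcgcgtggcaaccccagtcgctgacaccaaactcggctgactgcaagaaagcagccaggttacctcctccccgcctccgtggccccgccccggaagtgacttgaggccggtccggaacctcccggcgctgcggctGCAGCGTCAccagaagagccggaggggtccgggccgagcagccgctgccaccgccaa

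The Psme1 match was to the interferon-stimulated element core, 11 to 19 bases after the start on the opposite strand. The Psme2 match was to the antioxidant element core, at bases -67 to -59 of the start shown. RefSeq lists another Psme2 promoter at chr14:55591052-55591351, from whose start the same match lies 14 to 22 bases downstream. In addition, the Psme4 match was to the same core on the opposite strand, across the start site. The antioxidant element core was in 21 of the 36 members with a promoter (58.3%), against 45% of all 27025 genes with one. The CCAAT box was in 14 (38.9%, against 41.1%), the gamma-interferon activated site in 2 (5.56%, against 9.55%) and the interferon-stimulated element core in 6 (16.7%, against 9.76%). These are matches of letters in a window, and no enrichment was tested.

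No member passed the test for a difference between the genotype effects at the 2 ages: 0 members were called by limma and 0 had an unadjusted p under 0.05, and over all probes 0% were called higher and 0% lower, with 2116 at an unadjusted p under 0.05. The interval of that difference lay within 1.8-fold for 39 of 41 members, against 59.6% of all probes.

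Between old and young mice, which were on different slides, 0 members were called by limma in either genotype. Of all probes, 2.64% were called higher and 2.4% lower in WT, and 2.54% and 2.61% in TauTKO. At an unadjusted limma p under 0.05 there was 1 member in WT (Psma1, -0.20), against 22.5% of all probes. In TauTKO there were 3 (Psmd4 at 0.26, Psmc5 at 0.25 and Psmd8 at 0.24), against 21.0% of all probes. The methods' t-test had 3 members in WT and 2 in TauTKO at an unadjusted p under 0.05, without a share of all probes beside them. It had 0 in both after Benjamini-Hochberg adjustment. Psmd4, a ubiquitin receptor, had log2 signals of 6.33, 6.21 and 6.36 in old TauTKO against 6.17, 5.96 and 5.99 in young TauTKO, and its limma adjusted p of 0.117 fell below the threshold with quantile normalization and with an intensity trend. All 7 alpha subunits had a lower mean in old than in young mice in both genotypes, with medians of -0.15 in WT and -0.11 in TauTKO, except that quantile normalization turned 1 of them in WT. No alpha subunit was called.

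The rest of the pathway was described by lists, each given by its counts. Of all probes, 3.58% were called higher and 2.52% lower in old TauTKO, and 0.459% and 0.377% in young TauTKO. At an unadjusted p under 0.05 there were 22.8% and 12.8%. All 19 assembly factors and associated proteins of the proteasome were tested, of which 1 was called higher in old TauTKO and 0 lower (median -0.02), and 0 in young TauTKO. At an unadjusted limma p under 0.05 there were 5 in old and 3 in young mice. The called gene was Uchl5, a deubiquitinase of the 19S regulator, with 3.17, 3.04 and 3.03 in old TauTKO against 2.67, 2.64 and 2.73 in old WT, without overlap. It rose by 0.40 in old mice (0.22 to 0.58, limma adjusted p = 0.0171) and was at 0.15 in young mice (adjusted p = 0.511). Of 15 genes for ubiquitin, its activation and the segregase p97, 1 was called higher in old TauTKO (Ube2d2a, a ubiquitin-conjugating enzyme, 0.33, limma adjusted p = 0.0459) and 0 were called in young TauTKO (median 0.08 in old mice). Of these 15, 2 in old and 3 in young mice had an unadjusted limma p under 0.05.

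Of 10 transcription factors and their processing enzymes, 1 was called higher in old TauTKO, namely Nfe2l1, which activates proteasome subunit genes (median of the list 0.11). Its log2 signal was 1.61, 1.43 and 1.66 in old TauTKO against 1.13, 1.08 and 1.16 in old WT, and 1.37, 1.20 and 1.18 in young TauTKO against 1.17, 1.11 and 0.99 in young WT. The groups did not overlap at either age. Nfe2l1 rose by 0.45 in old mice (0.24 to 0.65, limma adjusted p = 0.0209) and was at 0.16 in young mice (-0.05 to 0.37, adjusted p = 0.538). Its relative Nfe2l2 was at -0.14 in old mice (adjusted p = 0.467). Of the 10 genes of this list, 2 had an unadjusted limma p under 0.05 at each age.

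Among 16 ubiquitin ligases listed for muscle atrophy, 2 were called higher and 0 lower in old TauTKO (median -0.12). Of all probes, 3.58% were called higher and 2.52% lower there. In young TauTKO 1 was called higher and 1 lower (median -0.03), against 0.459% and 0.377% of all probes. At an unadjusted limma p under 0.05 there were 7 in old mice and 4 in young mice, against 22.8% and 12.8% of all probes. The ligase of p53, Mdm2, rose by 0.60 in old mice (0.40 to 0.80, limma adjusted p = 0.0054). The signalling ligase Traf6 rose at both ages, by 0.56 in old mice (adjusted p = 0.00626) and by 0.47 in young mice (adjusted p = 0.0418). Fbxo32, the ligase atrogin-1, had log2 signals of 2.13, 1.36 and 2.15 in young TauTKO against 3.02, 2.72 and 3.13 in young WT, and 2.82, 2.90 and 2.74 in old TauTKO against 3.41, 3.43 and 3.12 in old WT. TauTKO was below WT in all arrays at each age, with a fall by 1.08 in young mice (-1.53 to -0.63, limma adjusted p = 0.0446) and a value of -0.50 in old mice (-0.95 to -0.05, adjusted p = 0.178). Trim63, the ligase MuRF1, was at -0.25 in old mice and -0.27 in young mice, with adjusted p of 0.267 and 0.416.

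No gene of the other 3 lists was called in either genotype comparison. Of 20 genes of antigen presentation and the interferon response, 0 were called by limma and 1 had an unadjusted p under 0.05 in each comparison (medians 0.02 in old and 0.11 in young mice). Tap1, the peptide transporter encoded beside Psmb9, was at -0.20 in old mice. Of 17 autophagy genes 0 were called, with 6 at an unadjusted p under 0.05 in old mice and 3 in young mice, and of 8 chaperonin genes 0 were called, with 2 and 0. Of all probes, 22.8% and 12.8% had an unadjusted p under 0.05 in these comparisons.

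**Figure D5:**
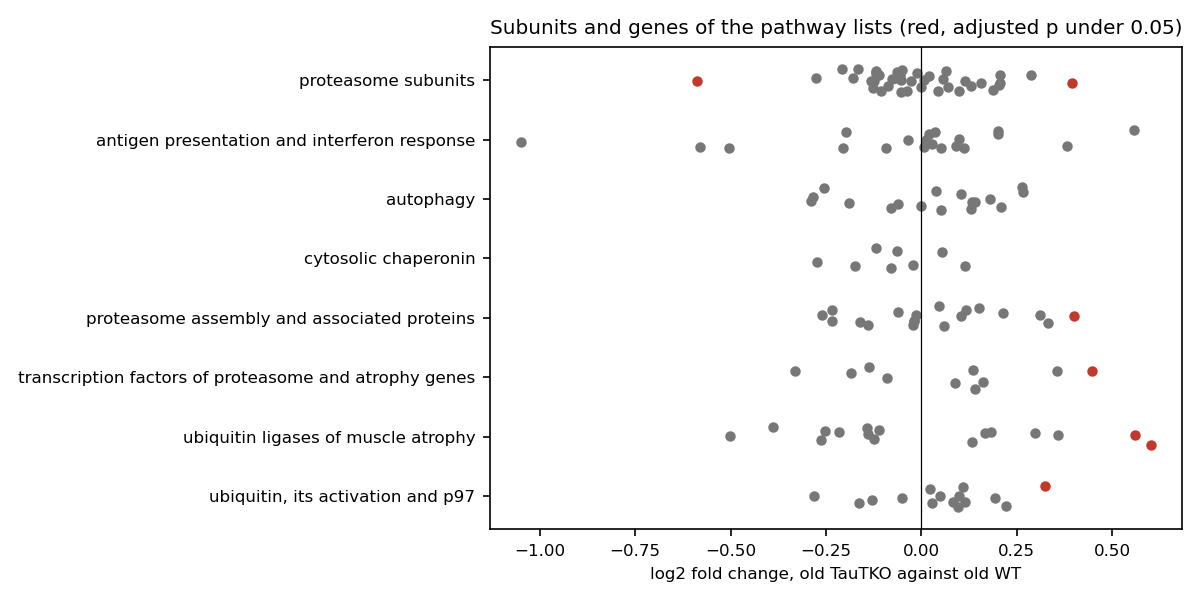
Log2 fold change in old TauTKO against old WT (x axis) of the 41 tested subunits and of the genes of each pathway list (y axis, points spread at random within a line), red where the adjusted p was under 0.05. The called genes outside the subunits are Uchl5, Nfe2l1, Mdm2, Traf6 and Ube2d2a, all higher.

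Some markers of fibre and cell types differed between the genotypes in old mice. Of 3 endothelium markers 0 were called, with 1 higher and 2 lower by mean (median -0.07). Of 4 fat cell markers 0 were called, and all 4 had a higher mean (median 0.64). Of 10 leukocyte markers, 4 were called higher in old TauTKO (Cd68, Csf1r, Emr1 and Lyz2) and 0 lower. In all, 6 of the 10 had a higher and 4 a lower mean, the lowest at -0.45. The summed signal of the 10 was 47.9 to 70.3 in old TauTKO and 64.9 to 71.6 in old WT. Of all probes, 3.58% were called higher and 2.52% lower in this comparison. Of 4 fibroblast markers, 3 were called higher, with a summed signal of 167 to 195 in old TauTKO and 121 to 131 in old WT. Of 8 markers of regenerating or denervated muscle, Ncam1 (2.16) and Chrna1 (0.49) were called higher, and 5 in all had a higher and 3 a lower mean (median 0.15). Their summed signal was 1150 to 1290 in old TauTKO and 1300 to 1480 in old WT. A summed linear signal follows the brightest markers of its list, so that it is not read as the direction of the list. Of 8 fast-fibre markers 7 had a lower mean in old TauTKO, of which Ckm was called (-0.43). Of 7 slow-fibre markers 6 had a higher mean (median of the list 1.16), the highest being Atp2a2 at 2.06 (limma adjusted p = 0.0544), and only Myl3 was called, at -4.18. The old groups were apart for 2 of the 7 with TauTKO higher and for 1 with TauTKO lower. Their summed signal was 237 in old TauTKO replicate 1 but 20.2 and 13.6 in replicates 2 and 3, against 55.4 to 122 in old WT. In young mice it was 26.6 to 45.1 in TauTKO and 100 to 208 in WT. By marker, however, 5 of the 7 had a higher and 2 a lower mean in young TauTKO (median 0.21). The lowest was at -3.75, and 0 were called. Every marker of these lists was well above background on every array, so that none of the defining markers was at 0. Their part in the differences of Psme1, Psme4 and the listed genes was not tested.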

How the data were processed

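RNA of each sample was hybridised to a 1-colour Agilent SurePrint G3 mouse array. The authors deposited Feature Extraction 10.10.1.1 scanner files with 1 background-corrected intensity per spot and no normalization between arrays, and a table of intensity values of the same arrays; their methods name GeneSpring, an unpaired t-test and a fold threshold of 1.8. Here log2 intensity minus the 75th percentile of the array was used (R 4.3.3, limma 3.58.1). Control spots and 1465 outlier spots were removed before replicate spots were averaged by probe. A probe was kept where every array of some group (3 arrays) detected it well above background, which left 38973 of 55681 probes for lmFit and eBayes on 4 group means, with Benjamini-Hochberg adjustment over all of them. Intervals are 95% from this fit. The number of arrays limits the precision. Alternatives covered scaling, background, filters, probe choice, spots, arrays left out, the deposited table, blocks, a trend, and the methods' t-test. The fit was tested on simulated data. All 43 accessions matched a RefSeq symbol on GRCm38.p6, equal to the array's. In the deposited table, the column of old WT replicate 1 matched the scanner file of replicate 2 and the reverse, and likewise in old TauTKO. Replicate numbers follow the scanner files, and the arrays left out and the replicate block rest on them. Permutations used SciPy. The members and lists were chosen with earlier results of these data known. Named were Psmb5 to Psmb10, the lowest and highest member of each class in old TauTKO, and every called member or list gene. Genes that the text singles out beyond that (Psmd7, Psmb2, Psmd4, Psme2, Psme3, Tap1, Trim63, Nfe2l2, Psma1, Psmd8, Atp2a2) were chosen after their values were seen.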

Additional observations from a re-analysis of the deposited data

How the results depend on the processing

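The number of members called in old TauTKO against old WT was 2 with the 75th percentile, 3 with quantile normalization, normexp and an intensity trend (adding Psmc5, higher), 1 without a filter on dim probes, 0 with the replicate block, with only the 2 groups compared, with the methods' t-test after Benjamini-Hochberg adjustment and with 1.8-fold also required, and 8 with the methods' t-test at an unadjusted p under 0.05; without single arrays it was 1 to 2. In young TauTKO against young WT it was 1, then 0 with quantile normalization, median scaling, no filter, the replicate block, the slide row as a block (chosen after seeing the data), only the 2 groups, the adjusted t-test and the 1.8-fold requirement, 4 with the unadjusted t-test, and 0 to 1 without single arrays. No alternative gave a call for the difference between ages. Old against young had 0 calls and the unadjusted t-test 3 in WT and 2 in TauTKO, with 1 in TauTKO under quantile normalization and under an intensity trend. The counts of the unadjusted t-test have no share of all probes beside them and are not read as a result about the members. The median of the members in old TauTKO was -0.05, 0.046 with median scaling and -0.06 to 0.01 without single arrays. Psme1 was lower and Psme4 higher in every setting at both ages, Psme1 between -0.64 and -0.49 in old mice (adjusted p 0.00401 to 0.0536, and beyond those 0.00209 with the trend, 0.0831 with only the 2 groups and 0.11 with the t-test), and no named subunit reversed with a call. Same-numbered arrays of an age deviated together with correlations of -0.14 to 0.32, so that the numbers were not taken to pair the samples. With 3 arrays per group small changes can be missed, and the intervals given show the range of changes that each fit leaves possible.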
